A study of Homo sapiens with 6 samples.

Results

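The genes described here encode the nuclear subunits and assembly factors of complex III, complex IV and ATP synthase, the last steps of mitochondrial respiration. They were chosen by official symbol: UQCR genes and UQCC factors for complex III, COX and COA genes for complex IV, ATP5 genes with ATPAF1 and ATPAF2 for ATP synthase. Of the 19240 genes in the deposited table, 70 carried such a symbol. Among them, 43 encode subunits or their isoforms and 24 encode assembly factors. The other 3 are ATP5IF1, an inhibitor protein of ATP synthase, COX7A2L, a factor that joins complexes III and IV, and the readthrough gene ATP5MF-PTCD1. Subunits encoded in mitochondrial DNA were not analysed here.

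A549 cells, a line established from a human lung carcinoma, were kept for 48 h without glucose or with 25 mM glucose. Each condition had 3 libraries, and the labels name no genetic change or further agent in either. The libraries were made from the 3' ends of transcripts. Separate cultures are not stated for the libraries of a condition, so a p-value here reflects only how much these libraries vary, and that variation may be technical. Gene counts ran, per library, from 11086416 to 14060313 without glucose and from 6701004 to 14259943 with glucose. Along the second principal component, with 17.6% of the variance, replicate 1 with glucose (called glucose replicate 1 below) lay farthest from the other libraries.

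Complex III passes electrons from ubiquinol to cytochrome c, complex IV passes them on to oxygen, and both pump protons across the inner mitochondrial membrane. ATP synthase lets the protons flow back through a ring of c subunits and uses that flow to make ATP. Each complex combines nuclear-encoded proteins with proteins made inside mitochondria, and dedicated assembly factors insert heme, copper and membrane subunits in order. Cells that cannot run glycolysis rely on this machinery for ATP.

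Levels are given as CPM, the counts of a gene scaled to a common library size. The 8 markers of A549 and epithelial cells were all present. They summed to 6212 to 7074 CPM without glucose and 8538 to 9290 CPM with glucose, and 3 of the 8, KRT8, KRT18 and AKR1B10, fell. The largest part came from ALDH1A1, with 3423 to 4472 CPM without glucose and 3127 to 3511 CPM with glucose. Over all libraries, EPCAM had only 2.54 to 5.63 CPM and CDH1 4.57 to 8.16 CPM. The alveolar surfactant genes SFTPA1, SFTPA2 and SFTPC, the T cell gene CD3E and the muscle genes MYH7, ACTN2 and CKM had a count of 0 in every library. The 4 surfactant genes summed to 0.516 to 0.612 CPM without glucose and 0.384 to 0.915 CPM with glucose, all from SFTPB. The fibroblast markers COL1A2 and DCN were also at 0, while the 6 fibroblast markers summed to 4.52 to 5.89 CPM without glucose and 13.0 to 14.8 CPM with glucose, mostly from COL1A1, which fell. The leukocyte markers summed to 25.0 to 39.2 CPM without glucose and 15.5 to 17.5 CPM with glucose, mostly from CD68, which rose, while CD14 fell. The 3 endothelial markers stayed under 1 CPM in sum, with VWF at 0, and the 4 muscle markers summed to 0.0765 to 0.295 CPM without glucose and 0 with glucose. The 6 proliferation genes all fell and summed to 1040 to 1533 CPM without glucose and 2158 to 3485 CPM with glucose. The 5 endoplasmic reticulum stress genes all rose and summed to 14738 to 19211 CPM without glucose and 1474 to 2451 CPM with glucose. The part of these shifts in the results below was not tested. In bulk libraries, a change in the kinds of cells present and a change in RNA per cell cannot be told apart.

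Without glucose, 9 genes of these complexes fell and 1 rose. The median fold change was below that of all genes. In complexes III and IV it was lower for assembly factors than for subunits. In ATP synthase the order was the other way, with a median log2 fold change of −0.28 for 2 assembly factors and −0.40 for 17 subunits. These differences were not tested. By the quasi-likelihood test of edgeR with Benjamini-Hochberg adjustment over all 11886 genes tested, 10 of 62 tested members (16.1%) passed, against 22.3% of all tested genes. Those that fell were ATP5MC3, ATP5MF, ATP5MC1, ATP5MG, UQCR10, UQCC3, UQCC6, COX16 and COX19, and COX6A1 rose. The share of members that fell, 14.5% of the 62 tested, stands beside 10.7% of all tested genes, and the share that rose, 1.61%, beside 11.6%. The member genes held 0.970%, 1.04% and 0.978% of all gene counts in the libraries without glucose, against 1.20%, 1.12% and 1.13% in the libraries with glucose.

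Ranked by CPM, all 3 libraries without glucose lay below all 3 libraries with glucose for 30 of the 62 tested members, or 48.4%, against 19.4% of all tested genes. They lay above for 4 members, or 6.45%, against 21% of all tested genes, and groups without overlap in either direction made up 40.4% of all tested genes. The median log2 fold change was −0.30 over the tested members and 0.02 over all tested genes. The count of members that fell depends on the libraries: it was 3 with no-glucose replicate 3 left out and 5 with glucose replicate 2 or glucose replicate 3 left out. In the same fits the count of all genes that fell was 781, 884 and 898, against 1276 with every library. The Wald test of DESeq2 called 15 members lower and none higher (2 at an unadjusted p under 0.05), beside 11.7% lower and 11.4% higher among the 12896 genes it tested.

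**Figure D1:**
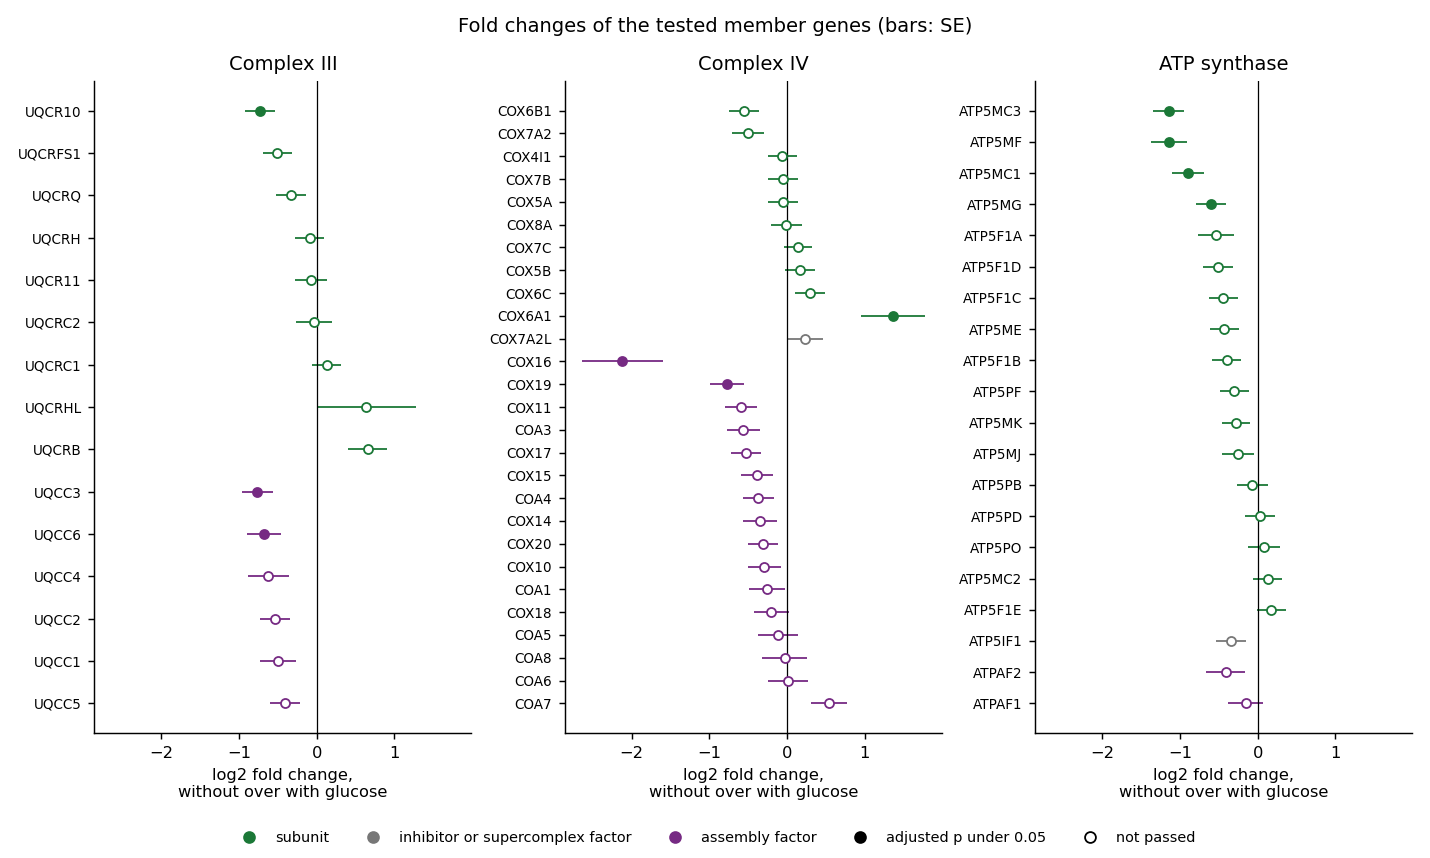
Log2 fold change (x axis, without over with glucose) of each of the 62 tested members, with bars for the standard error, by complex and role; filled points passed the test. All 6 complex III assembly factors lie left of 0, as do the 4 ATP synthase subunits that passed, and COX6A1 and COX16 have the widest bars of the called genes.

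The 6 assembly factors of complex III with a UQCC symbol lay close together. All 6 had a log2 fold change below 0, from −0.76 to −0.41 with a median of −0.58. All 6 also had groups that did not overlap, lower without glucose, against 19.4% of all tested genes. Of these 6, 2 passed the test (33.3%, against 10.7% of all tested genes lower), UQCC3 and UQCC6. The 6 other complex III and cytochrome c genes listed, outside these symbols, were more spread, 4 below 0 and 2 above. BCS1L had −0.79, CYC1 −0.47, HCCS −0.38, CYCS −0.01, LYRM7 0.38 and TTC19 0.62. UQCC1, UQCC2 and UQCC3 act early, on newly made cytochrome b, and UQCC4, UQCC5 and UQCC6 are small proteins also needed for complex III assembly.

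UQCC3 had 41.8, 42.9 and 41.6 CPM without glucose, against 81.4, 57.8 and 75.1 CPM with glucose. The libraries without glucose were nearly level, and those with glucose were all higher but spread more. This gave a log2 fold change of −0.76 ± 0.20 (approximate SE, as after every ± that follows a log2 fold change; edgeR adjusted p = 0.0181). The call was lost with no-glucose replicate 3 or glucose replicate 3 left out, and with a replicate block (highest adjusted p over the alternatives 0.0631). UQCC3 overlaps the measured gene LBHD1, so its counts are uncertain where reads fall in the shared stretch. UQCC6 had 12.5, 18.8 and 18.4 CPM without glucose and 30.0, 25.0 and 24.9 CPM with glucose, a log2 fold change of −0.68 ± 0.22 (edgeR adjusted p = 0.0467). That call lay close to the threshold and was lost on leaving out any library and with a replicate block. UQCC2, at 72.9, 67.7 and 79.7 CPM without glucose and 95.8, 101 and 122 CPM with glucose, did not pass (log2 fold change −0.54 ± 0.20, edgeR adjusted p = 0.0684). UQCC1, UQCC4 and UQCC5 did not pass either, with log2 fold changes of −0.50, −0.62 and −0.41.

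The 9 subunit genes of complex III lay on both sides of 0. Their median log2 fold change was −0.07. By edgeR 1 of them fell (11.1%, against 10.7% of all tested genes) and 8 did not pass. None rose by edgeR or DESeq2 (1 was higher at an unadjusted p under 0.05 by each). UQCR10, a small subunit of the membrane domain, fell. It had 66.0, 67.4 and 63.3 CPM without glucose, against 122, 94.9 and 110 CPM with glucose. The groups were well separated, with a log2 fold change of −0.73 ± 0.19 (edgeR adjusted p = 0.0177). That call was lost with either group's replicate 3 left out and with a replicate block (highest adjusted p over the alternatives 0.0651).

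The other 8 subunits of complex III did not pass. UQCRFS1, the Rieske iron-sulfur protein that takes electrons from ubiquinol, had 229, 241 and 235 CPM without glucose and 369, 322 and 309 CPM with glucose (log2 fold change −0.50 ± 0.19, edgeR adjusted p = 0.0706). The groups did not overlap, although the gene missed the threshold. UQCRB, a small subunit close to a ubiquinone site, had 1155, 999 and 1118 CPM without glucose and 426, 817 and 829 CPM with glucose. Every library without glucose was higher, and glucose replicate 1 was far below the other two (log2 fold change 0.66 ± 0.25, edgeR adjusted p = 0.0758). With that library left out it was 0.40 (edgeR adjusted p = 0.152). The large core subunits UQCRC1 and UQCRC2 had log2 fold changes of 0.13 ± 0.19 and −0.04 ± 0.23, and UQCRQ and UQCR11, of the membrane domain, −0.33 ± 0.19 and −0.07 ± 0.20.

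UQCRH, the hinge subunit that helps cytochrome c dock, had a log2 fold change of −0.09 ± 0.19. Its intronless copy UQCRHL had 17, 16 and 24 counts without glucose and 1, 10 and 23 counts with glucose, groups that overlapped. Reads from such near-identical genes may be split or dropped in counting, so both values are uncertain. The class median for complex III subunits changed sign with glucose replicate 1 left out (0.07) and came to 0.00 with no-glucose replicate 1 left out. Glucose replicate 1 was also the library with the fewest gene counts, 6701004.

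**Figure D2:**
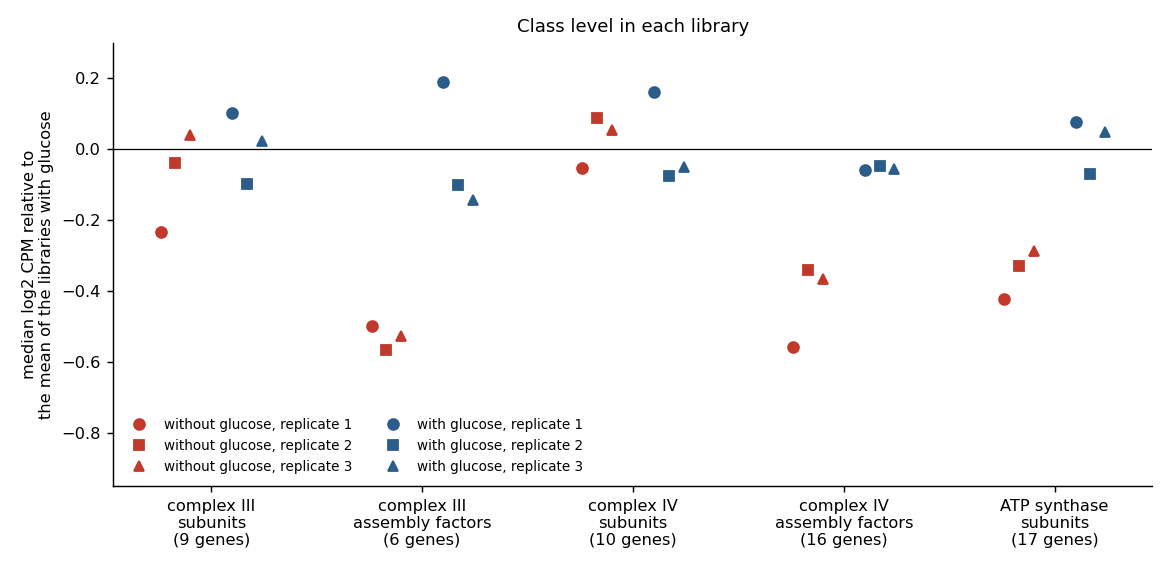
Median over the tested genes of each class of log2 CPM relative to the mean of the libraries with glucose (y axis), per library, for 5 classes (x axis). The libraries without glucose lie between −0.57 and −0.50 for complex III assembly factors and below every library with glucose also for complex IV assembly factors and ATP synthase subunits, while the groups overlap for the subunits of complexes III and IV.

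Complex IV showed the same order of medians as complex III, with subunits nearly level and assembly factors lower. The 10 tested subunit genes had a median log2 fold change of −0.03, and the 16 assembly factors −0.33. By edgeR 1 subunit rose (10%, against 11.6% of all tested genes) and 9 did not pass. None fell by edgeR (2 at an unadjusted p under 0.05, and 1 called by DESeq2). Of the assembly factors, 2 fell (12.5%, against 10.7% of all tested genes) and 14 did not pass. The subunit median turned positive with glucose replicate 1 (0.08), no-glucose replicate 1 (0.01) or no-glucose replicate 3 (0.03) left out. The assembly factor median stayed below 0 on leaving out any library, at −0.42 to −0.29.

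COX6A1, the form of subunit 6A found outside muscle, was the member that rose, and 1 library decides its size. It had 888, 251 and 256 CPM without glucose, against 208, 158 and 177 CPM with glucose. All 3 libraries without glucose were higher, with replicate 1 far above the other two. The log2 fold change was 1.36 ± 0.41 (edgeR adjusted p = 0.0334), but 0.48 with that replicate left out (edgeR adjusted p = 0.154). The call was also lost on leaving out any one of the libraries with glucose and under DESeq2 (adjusted p = 0.101). The RefSeq table names 6 pseudogenes of COX6A1, and reads that match a gene and its copy equally well were not counted for either.

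COX6B1 and COX7A2, subunits that join the enzyme with mitochondrially encoded MT-CO3, were lower in every library without glucose but did not pass. COX6B1 had 304, 343 and 351 CPM without glucose and 550, 415 and 505 CPM with glucose (log2 fold change −0.56 ± 0.20, edgeR adjusted p = 0.0592). COX7A2 had 156, 188 and 195 CPM without glucose and 306, 243 and 216 CPM with glucose (−0.50 ± 0.21, edgeR adjusted p = 0.0988). The other subunits did not pass either. COX4I1 and COX5A, which join MT-CO1, the heme-carrying core subunit, had log2 fold changes of −0.06 ± 0.19 and −0.06 ± 0.20. COX5B, COX6C, COX7B, COX7C and COX8A ranged from −0.06 to 0.29, and COX7A2L had 0.23 ± 0.23.

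Complex IV has tissue-specific subunit isoforms, and A549 held almost no transcripts of them under either condition. COX4I2, the isoform linked to lung and low oxygen, had 0 counts in every library, as did COX6A2, of heart and skeletal muscle, and COX7B2 and COX8C, known from testis. COX6B2, a testis isoform, had 1, 0 and 2 counts without glucose and 0 with glucose. COX7A1, a muscle isoform, had 3 counts in replicate 3 without glucose and 0 elsewhere. A count of 0 in a library allows a level of up to 3 counts, or 0.211 to 0.424 CPM in these libraries, and covers counting error only. No change of isoform could be detected at this depth.

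Among complex IV assembly factors, COX16 and COX19 fell. COX16, which helps build the copper-containing second core subunit, had 39.9, 49.4 and 16.8 CPM without glucose, against 52.3, 288 and 120 CPM with glucose. The groups did not overlap, but the libraries with glucose differed several-fold among themselves. The log2 fold change was −2.12 ± 0.52 (edgeR adjusted p = 0.0126). It was −1.29 with glucose replicate 2 left out (edgeR adjusted p = 0.0699) and −1.79 with no-glucose replicate 3 left out (0.0577). COX16 overlaps the readthrough gene SYNJ2BP-COX16, which had a count of 0 in every library, so how reads of the shared exons were assigned is uncertain.

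Of 4 copper-handling factors, 1 fell (25%, against 10.7% of all tested genes) and 3 did not pass. COX19, of the intermembrane space, had 34.0, 35.9 and 36.5 CPM without glucose and 51.0, 78.7 and 51.9 CPM with glucose. Glucose replicate 2 was the high library, and the log2 fold change was −0.77 ± 0.22 (edgeR adjusted p = 0.0250). That call was lost with glucose replicate 2 or any one no-glucose library left out, and with a replicate block (highest adjusted p over the alternatives 0.118). COX11, which delivers copper to the first core subunit, had 64.1, 84.9 and 67.3 CPM without glucose and 103, 101 and 122 CPM with glucose. It missed the threshold (−0.59 ± 0.20, edgeR adjusted p = 0.0531) but passed with size factors in place of TMM scaling (0.0475), with library totals (0.0450), under DESeq2 (0.0230) and with no-glucose replicate 2 left out (0.0404). COX17, the copper chaperone that supplies the others, did not pass, with 105, 129 and 111 CPM without glucose and 152, 187 and 159 CPM with glucose. COA6, which acts on the copper site of the second core subunit, had a log2 fold change of 0.01 ± 0.26.

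The remaining complex IV factors did not pass the test. COX10 and COX15, which make heme A, had log2 fold changes of −0.29 ± 0.21 and −0.38 ± 0.20. COX14 and COA3, which bind the newly made first core subunit, had −0.35 ± 0.22 and −0.57 ± 0.21, and COX18 and COX20, which handle the second core subunit, −0.20 ± 0.23 and −0.31 ± 0.20. COA7 had 0.54 ± 0.24, or 0.29 with no-glucose replicate 1 left out (edgeR adjusted p = 0.413), with 42.4, 25.5 and 28.3 CPM without glucose and 25.6, 21.2 and 19.6 CPM with glucose. Its groups overlapped, since glucose replicate 1 lay just above no-glucose replicate 2. COA1, COA4, COA5 and COA8 ranged from −0.37 to −0.03.

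Of 17 tested ATP synthase subunits, 4 fell and none rose by edgeR or DESeq2 (none at an unadjusted p under 0.05 either). The 23.5% that passed lie near the 22.3% of all tested genes, with all 4 lower, a direction that 10.7% of all genes took. The class median was −0.40, and 11 of the 17 (64.7%) had groups that did not overlap, all lower without glucose, against 19.4% of all tested genes. By part of the enzyme, 2 of 3 c ring genes and 2 of 5 genes of the other membrane subunits fell, with medians of −0.90 and −0.43. None of 5 genes of the F1 head passed by edgeR (3 at an unadjusted p under 0.05; 1 called by DESeq2), and their median was −0.44. None of 4 genes of the peripheral stalk, which holds the head still, passed by either tool or at an unadjusted p under 0.05, and their median was −0.02. These differences between parts were not tested. With a fitted trend on GC content and length taken out over all genes, the median of the 17 subunits was −0.25.

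The c ring is the proton-driven rotor, and 3 genes encode its subunit c. ATP5MC1, ATP5MC2 and ATP5MC3 make the same mature protein from precursors with different mitochondrial targeting peptides. RefSeq promoter windows of GRCh38.p14 were at hand for ATP5MC1 (chr17:48892537-48892836, plus strand) and ATP5MC2 (chr12:53676034-53676333, minus strand). They are shown as a called and an uncalled gene for the same protein, 250 bases before to 50 after the start. Capitals mark matches to motifs of factors known for respiratory genes: the NRF1 motif, CCGGAAG for ETS factors such as GABP, the YY1 motif and CCGCCC for SP factors, on either strand. No match overlaps another in the windows shown.
ATP5MC1: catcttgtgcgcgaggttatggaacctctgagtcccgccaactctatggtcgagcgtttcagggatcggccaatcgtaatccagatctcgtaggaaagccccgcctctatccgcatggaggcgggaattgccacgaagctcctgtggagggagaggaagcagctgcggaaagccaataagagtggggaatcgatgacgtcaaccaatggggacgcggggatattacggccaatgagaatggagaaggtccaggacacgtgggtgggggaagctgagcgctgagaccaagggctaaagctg
ATP5MC2: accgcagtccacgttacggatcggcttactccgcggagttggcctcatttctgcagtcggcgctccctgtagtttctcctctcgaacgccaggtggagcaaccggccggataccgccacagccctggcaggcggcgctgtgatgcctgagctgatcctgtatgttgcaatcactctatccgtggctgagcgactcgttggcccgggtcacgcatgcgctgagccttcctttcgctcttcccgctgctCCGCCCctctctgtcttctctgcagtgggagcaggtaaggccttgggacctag
The ATP5MC1 window held none of the 4 motifs. The ATP5MC2 window held 1 SP match, which begins 3 bases before the start and runs across it.

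ATP5MC3 had 111, 150 and 121 CPM without glucose, against 307, 279 and 260 CPM with glucose. Every library without glucose was well below every library with glucose, and the log2 fold change was −1.14 ± 0.20 (edgeR adjusted p = 0.00201). ATP5MC1 had 88.8, 132 and 111 CPM without glucose and 225, 193 and 200 CPM with glucose. Its groups were likewise separate, with a log2 fold change of −0.90 ± 0.21 (edgeR adjusted p = 0.00929). ATP5MC2 had 270, 318 and 304 CPM without glucose and 269, 258 and 286 CPM with glucose, groups that overlapped (0.13 ± 0.19, edgeR adjusted p = 0.643). The calls of ATP5MC3 and ATP5MC1 held under all 12 alternatives tried, among them each library left out.

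The mix of the 3 c subunit genes was also taken within each library, where no scaling between libraries is needed, and no share overlapped between the groups. ATP5MC2 held 57.4%, 53.0% and 56.7% of their summed counts without glucose, against 33.6%, 35.3% and 38.3% with glucose. Its mean share was 55.7% ± 2.37 without glucose and 35.8% ± 2.39 with glucose (SD, n = 3 each), a difference of 19.9 percentage points. ATP5MC3 held 23.8% ± 1.21 without glucose and 37.1% ± 1.96 with glucose, and ATP5MC1 20.5% ± 1.56 without glucose and 27.1% ± 0.845 with glucose (SD, n = 3 each). In the exact two-sided permutation test over libraries p was 0.1 for each of the 3 shares, and 0.1 after Benjamini-Hochberg adjustment, the smallest p that 3 against 3 libraries allow. The 3 shares add up to the whole within each library and use the same counts as the fold changes above, so they are not separate results. The share of ATP5MC2 was higher without glucose although its own level did not pass the edgeR test (log2 fold change 0.13 ± 0.19). The shares are of 3' end counts, and the RefSeq table names 8 pseudogenes of ATP5MC1 and 5 of ATP5MC2. The summed level of the 3 genes was 535 ± 65.5 CPM without glucose and 759 ± 37.2 CPM with glucose (SD, n = 3 each).

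**Figure D3:**
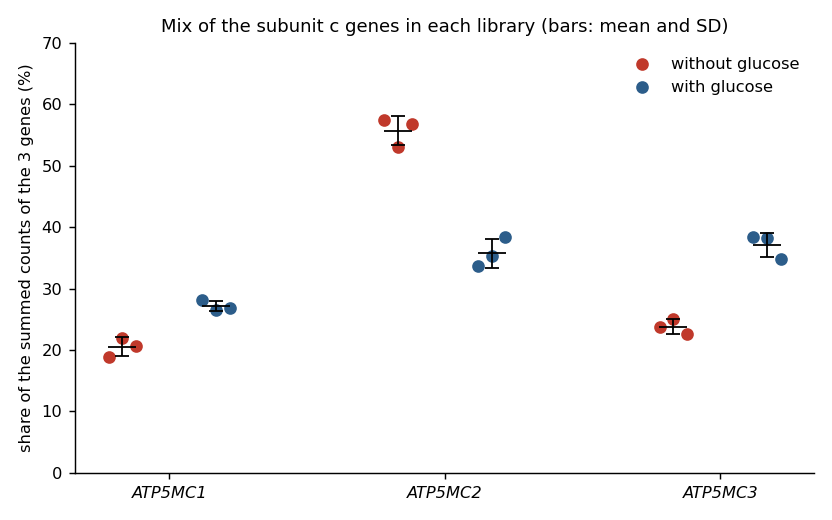
Share of the summed counts of ATP5MC1, ATP5MC2 and ATP5MC3 held by each gene (y axis, percent), per library, with mean and SD bars. ATP5MC2 holds 53.0% to 57.4% without glucose and 33.6% to 38.3% with glucose, and the groups do not overlap for any of the 3 genes.

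Among small subunits of the membrane part, ATP5MF and ATP5MG fell. ATP5MF, subunit f, had 233, 152 and 179 CPM without glucose, against 318, 430 and 493 CPM with glucose. The groups did not overlap, and the log2 fold change was −1.14 ± 0.24 (edgeR adjusted p = 0.00496), a call that held under all 12 alternatives. ATP5MF overlaps the readthrough gene ATP5MF-PTCD1, at 0 counts in every library, so its counts are uncertain in the same way as those of COX16. ATP5MG, subunit g, which helps ATP synthase form dimers with subunit e, had 160, 164 and 190 CPM without glucose and 288, 258 and 232 CPM with glucose. The log2 fold change was −0.60 ± 0.19 (edgeR adjusted p = 0.0435). That call was lost on leaving out any library, with a replicate block and with no filter on low counts (highest adjusted p over the alternatives 0.124). ATP5ME, subunit e, missed the threshold at −0.43 ± 0.19 (edgeR adjusted p = 0.117), and ATP5MJ and ATP5MK, accessory proteins at the dimer, had −0.25 ± 0.21 and −0.28 ± 0.18. The RefSeq table names 7 pseudogenes of ATP5MF and 8 of ATP5MG. The subunit g relative ATP5MGL had 12 counts over the libraries without glucose and 10 over those with glucose.

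In the F1 head, 4 of 5 genes (80%, against 19.4% of all tested genes) had all libraries without glucose below all with glucose, but none passed. ATP5F1B, the catalytic beta subunit, had 516, 552 and 523 CPM without glucose, against 765, 604 and 723 CPM with glucose (log2 fold change −0.40 ± 0.19, edgeR adjusted p = 0.148). ATP5F1A, the alpha subunit, had 129, 171 and 197 CPM without glucose and 216, 205 and 298 CPM with glucose (−0.53 ± 0.23, edgeR adjusted p = 0.113). The central stalk subunits ATP5F1C and ATP5F1D had −0.44 ± 0.18 and −0.51 ± 0.19. ATP5F1E, the third protein of the central stalk, overlapped between groups, with 709, 807 and 633 CPM without glucose and 577, 643 and 680 CPM with glucose (0.18 ± 0.19).

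The peripheral stalk genes ATP5PB, ATP5PD and ATP5PO had log2 fold changes of −0.07 ± 0.20, 0.03 ± 0.19 and 0.09 ± 0.21, and ATP5PF −0.30 ± 0.19. Of these 4, only ATP5PF (25%, against 19.4% of all tested genes lower) had groups that did not overlap. It had 96.8, 104 and 115 CPM without glucose and 129, 125 and 134 CPM with glucose. ATP5IF1, which blocks ATP hydrolysis when the proton gradient fails, did not pass (−0.34 ± 0.19, edgeR adjusted p = 0.221), although every library without glucose was lower. ATPAF1 and ATPAF2, chaperones of the beta and alpha subunits, had −0.16 ± 0.22 and −0.41 ± 0.25, with overlapping groups.

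**Figure D4:**
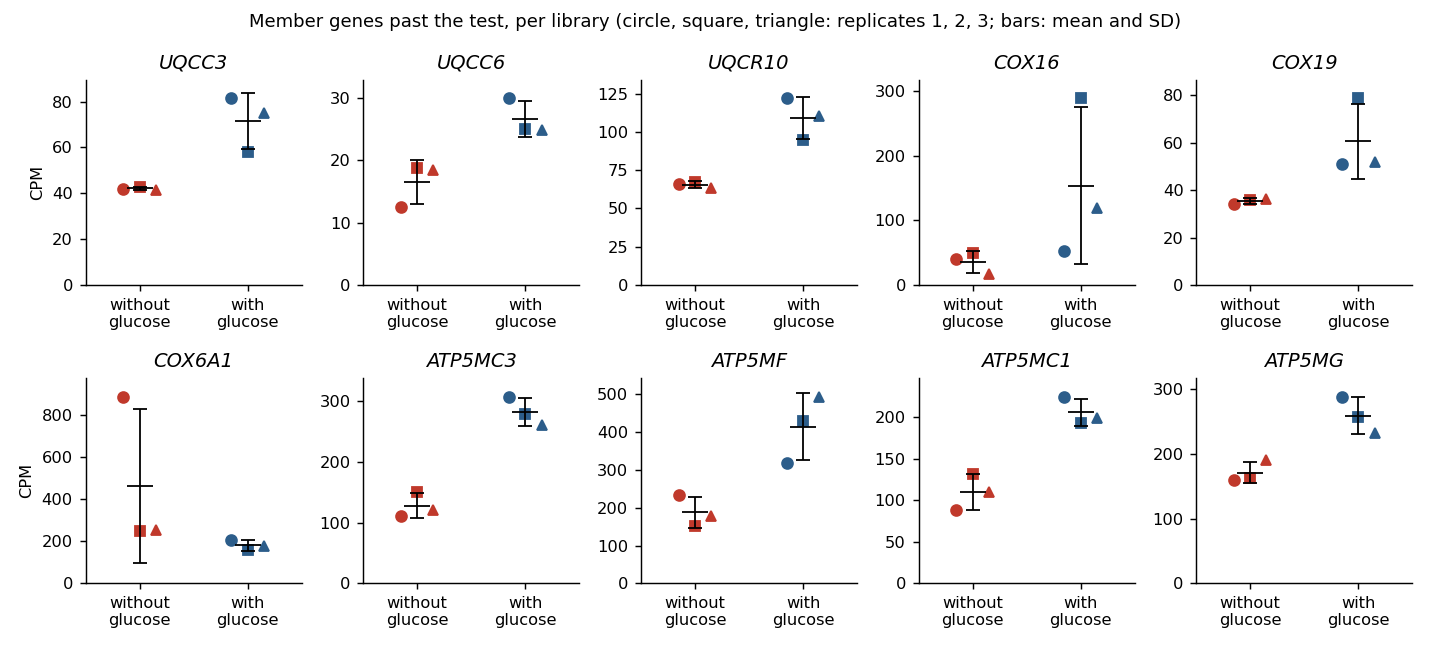
CPM of the 10 members past the test in each library, with mean and SD bars; the left column of each panel is without glucose and the right with glucose. For COX6A1 replicate 1 without glucose stands at 888 CPM beside 251 and 256, and for COX16 the libraries with glucose run from 52.3 to 288 CPM.

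Promoter windows were at hand for 57 of the 70 members, and 2 more called genes with a motif match are shown. UQCR10 (chr22:29767119-29767418, plus strand, GRCh38.p14) holds an NRF1 match that starts 8 bases before the start, and ATP5MG (chr11:118401356-118401655, plus strand, GRCh38.p14) an ETS match just after it. Capitals mark the matches as above.
UQCR10: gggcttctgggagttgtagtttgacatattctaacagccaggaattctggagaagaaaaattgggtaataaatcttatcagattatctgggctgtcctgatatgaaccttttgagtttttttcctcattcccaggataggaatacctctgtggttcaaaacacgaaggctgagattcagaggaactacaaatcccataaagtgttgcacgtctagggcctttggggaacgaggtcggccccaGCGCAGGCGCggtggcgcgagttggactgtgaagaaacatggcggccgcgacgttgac
ATP5MG: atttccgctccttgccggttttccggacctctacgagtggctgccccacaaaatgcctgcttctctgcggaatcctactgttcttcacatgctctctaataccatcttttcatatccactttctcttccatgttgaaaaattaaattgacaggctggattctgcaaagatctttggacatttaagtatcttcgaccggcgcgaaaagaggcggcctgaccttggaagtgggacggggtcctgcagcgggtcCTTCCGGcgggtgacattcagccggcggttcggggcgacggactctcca
Over the 53 tested members with a window, 24.5% held the NRF1 motif, against 12.2% of the 9805 tested genes with a window and 6.28% of all 27305 windows. The ETS motif stood in 35.8% of these members, against 19.8% of tested genes and 10.7% of all windows. The YY1 motif stood in 11.3%, against 3.02% and 1.35%, and the SP motif in 66.0%, against 71.3% and 44.6%. Of the 6 members that fell and had a window, 1 held the NRF1 motif, 1 the ETS motif, none the YY1 motif and 3 the SP motif. These are matches of letters, which do not show binding.

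Other genes of the same pathway, left out by the symbols, were read from lists by complex. Beside these counts stand 10.7% of all tested genes lower and 11.6% higher. Of 37 complex I subunits, 6 fell (16.2%), 1 rose (2.70%) and 30 did not pass, with a median of −0.30. NDUFA2, NDUFA3 and NDUFV2, the last an electron-carrying subunit, had the smallest p of these 6, with values of −0.87 ± 0.21, −0.78 ± 0.21 and −0.70 ± 0.20. The one that rose, named after its value was seen, was NDUFS4, an accessory subunit, at 0.90 ± 0.25. Of 8 complex II genes, 1 fell (12.5%) and 7 did not pass, with a median of −0.43. The one that fell was SDHA, its catalytic subunit, at −1.05 ± 0.19 (edgeR adjusted p = 0.00247), while SDHC, a membrane anchor, and SDHAF1, an assembly factor, had −0.44 ± 0.21 and −0.46 ± 0.22.

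Among 6 other complex III and cytochrome c genes, 1 fell (16.7%) and 5 did not pass, with a median of −0.20. BCS1L, which inserts the Rieske protein, fell with −0.79 ± 0.26 (edgeR adjusted p = 0.0492). TTC19, which acts late in complex III assembly, had 0.62 ± 0.22, and CYC1, the cytochrome c1 subunit, −0.47 ± 0.20. Neither passed.

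Of 16 other complex IV genes, 3 fell (18.8%), 1 rose (6.25%) and 12 did not pass, with a median of −0.35. PET100, TMEM177 and TACO1, which act in assembly or translation of complex IV, fell with −0.78 ± 0.20, −0.96 ± 0.26 and −0.73 ± 0.22. LRPPRC, which stabilizes mitochondrial mRNA, rose with 0.57 ± 0.18 and was named after its value was seen. Among 5 other ATP synthase genes, 1 fell (20%) and 4 did not pass, with a median of 0.14. TMEM70, which helps form the c ring, fell with −0.61 ± 0.20 (edgeR adjusted p = 0.0441), and FMC1 and TMEM242, also assembly factors, did not pass, at −0.57 ± 0.19 and 0.52 ± 0.25.

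**Figure D5:**
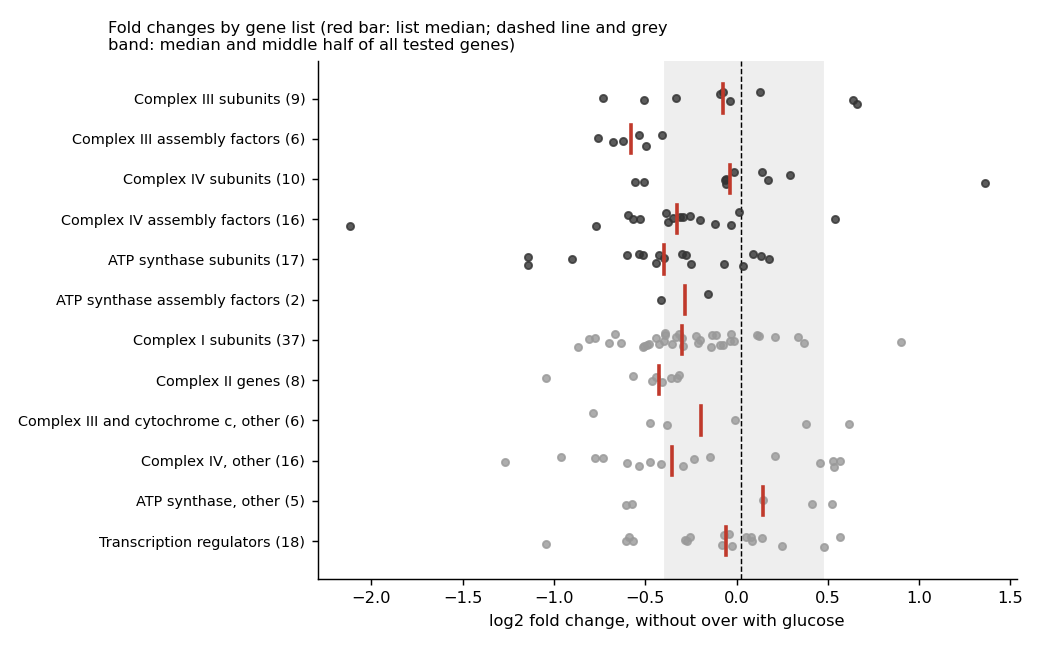
Log2 fold change (x axis, without over with glucose) of each tested gene by list, with the number of genes in brackets; black points are the members, grey points other genes of the pathway. The medians of complex III assembly factors (−0.58), ATP synthase subunits (−0.40) and complex II genes (−0.43) lie lowest, beside 0.02 for all tested genes.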

How the data were processed

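The authors deposited raw counts of reads per gene for 6 libraries, and the submitters' processing notes name STAR, HTSeq and the build hg19. Per the labels' protocols the libraries are strand specific. The strand setting of the counting, the annotation and tool versions were not given in the sources used here, and reads of overlapping genes cannot be told apart with certainty. Per the labels' protocols, cDNA was primed with barcoded oligo-dT, pooled by an Actb signal and amplified for 12 PCR cycles. No molecular identifiers are mentioned, so floors cover counting error only. Genes are listed by Entrez number, and 19178 of 19240 matched a symbol in a RefSeq table of GRCh38.p14, used for names and for which genes overlap. The HTSeq summary lines entered neither library sizes nor tests. By library, 32.8% to 36.5% of reads matched no counted gene feature, 18.4% to 22.2% had several alignments and 0.369% to 0.418% were ambiguous. Of the 70 members, 33 have at least 1 named pseudogene.

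Counts were tested in edgeR 4.0.16 by its quasi-likelihood F test (two-sided; TMM scaling, filterByExpr at a minimum count of 10, no covariate, Benjamini-Hochberg adjustment over 11886 genes; an adjusted p under 0.05 passed). The filter left 62 of 70 members. Levels are CPM on TMM-scaled library sizes. The SE of a log2 fold change is its size divided by the square root of F, and is approximate. DESeq2 1.42.0 was an alternative. The edgeR test was tried on simulated counts. Libraries of a group differed beyond sampling noise (chi-square per degree of freedom 22.1 to 57.3), so none were merged. The members, lists and tests were chosen with earlier results of these data known. Named genes are the members that passed, the 3 with the smallest p in each class, isoform groups, members at 0 and the 3 with the smallest p in each other list; the remaining members were added to account for all of them. Alternatives were DESeq2's size factors, library totals, no filter, a mean of at least 20 counts, a replicate block and each library left out. The NRF1 and YY1 motifs have a single open position each. Protein sequences were not used here.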

Additional observations from a re-analysis of the deposited data

How the results depend on the processing

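The number of members that fell was 9, and 15 under DESeq2, 4 with a replicate block and 3 to 7 with 1 library left out. For subunits it was 5, against 8, 3 and 3 to 4, and for assembly factors 4, against 7, 1 and 0 to 3. The number that rose was 1, 0 under DESeq2 and 0 to 1 with 1 library left out. The 0 for assembly factors is edgeR with no-glucose replicate 3 left out, where 8 were lower at an unadjusted p under 0.05, and the 0 under DESeq2 stands beside 2 members higher at that p. Over all genes 781 to 1232 fell and 860 to 1292 rose with 1 library left out, and with the block 911 fell and 984 rose. Class medians with 1 library left out ran from −0.16 to 0.070 (complex III subunits), −0.67 to −0.51 (complex III assembly factors), −0.074 to 0.084 (complex IV subunits), −0.42 to −0.29 (complex IV assembly factors) and −0.46 to −0.33 (ATP synthase subunits). Removing trends with GC content and transcript length, an alternative chosen after seeing the data, gave −0.25 for ATP synthase subunits; the cause was not tested. It gave 0.01 for complex III subunits and 0.06 for complex IV subunits, both within the spread between libraries of the values above, as were the other 2 class medians. Same-numbered libraries did not deviate together (correlations of −0.27, −0.12 and 0.04), so the numbers are not taken as pairs. With 1 library left out, the difference in share of ATP5MC2 was 18.9 to 21.3 percentage points, that of ATP5MC3 −14.5 to −12.7 and that of ATP5MC1 −7.35 to −5.80. None of the 10 called members changed direction under the 12 alternatives tried.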

Other observations

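Of 19 listed regulators of respiratory gene transcription, 18 were tested, and 1 fell (5.56%) while 17 did not pass, with a median log2 fold change of −0.06. Over all tested genes, 10.7% fell and 11.6% rose. HCFC1, a host cell factor that works with several transcription factors, fell with −1.04 ± 0.25 (edgeR adjusted p = 0.0108). GABPB1, which pairs with the ETS factor GABPA, had 0.57 ± 0.20 (edgeR adjusted p = 0.0571), and MYC −0.59 ± 0.21 (0.0652). NRF1, GABPA and YY1, named because their motifs were searched above, had −0.04 ± 0.24, 0.05 ± 0.30 and −0.03 ± 0.25. PPARGC1A, a coactivator of mitochondrial biogenesis, had a count of 0 in every library.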
